A study of Mus musculus with 24 samples.

Results

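The canonical Wnt genes followed here are 4 ligands and 6 targets or modulators of the pathway, read from bulk RNA of neonatal mouse lungs. The ligands are Wnt2, Wnt3a, Wnt7b and Wnt4, and the others are Axin2, Lef1, Nkd1, Lgr5, Lgr6 and Wif1. They were taken by gene symbol from 4 tables of mutant and control lungs, and all 10 were found among the 23418 distinct gene names of each table. All 10 also passed the filter on low values in each table, which kept genes at 1 normalized count or more in at least 3 lungs. A normalized count is a read count scaled by the size factor of its lung.

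Canonical Wnt ligands bind a Frizzled receptor and an LRP coreceptor, which stops the destruction complex from degrading beta-catenin. Beta-catenin then enters the nucleus and acts with TCF and LEF proteins on target genes, some of which encode brakes on the pathway itself. In the lung, Wnt2 comes from the mesenchyme and Wnt7b from the epithelium, and Wnt signaling takes part in the growth of both layers. The planar cell polarity pathway, in which Vangl2 and the Wnt receptor Ror2 act, is a separate branch that does not use beta-catenin.

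The left lung lobe was collected at postnatal day 2 (P2) or 5 (P5) from Sox9Cre; Vangl2f/f mutants, from Sox9Cre; Ror2f/f mutants and from a separate set of control lungs for each mutant and age. Each of the 8 groups held 3 lungs. The control lungs are titled Control(Vangl1/2) or Control(Ror2) and labelled WT. Their titles do not say whether they carry the Cre. The Cre is driven from the Sox9 locus, which is active in the distal lung epithelium, while the RNA came from the whole lobe. For 2 mutant groups (Vangl2 at P5, Ror2 at P2) the genotype entry gives the other targeted gene, and those lungs were grouped by title.

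The promoters are shown for Axin2, a much used reporter gene of canonical signaling, and for Lef1, a TCF/LEF factor that is also a target. The sequences are RefSeq promoters of build GRCm38.p6, from 250 bases before to 50 bases after the start of transcription, chr11:108920099-108920398 for Axin2 and chr3:131110047-131110346 for Lef1, both on the + strand. Capitals mark CTTTG, the core of the TCF/LEF motif, which the Axin2 window does not hold.

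Axin2: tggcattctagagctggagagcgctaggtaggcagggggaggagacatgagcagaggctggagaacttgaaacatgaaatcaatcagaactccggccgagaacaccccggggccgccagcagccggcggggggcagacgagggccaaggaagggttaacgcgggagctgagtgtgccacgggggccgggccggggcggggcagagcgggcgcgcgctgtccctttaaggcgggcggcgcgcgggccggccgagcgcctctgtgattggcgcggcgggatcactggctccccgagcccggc

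Lef1: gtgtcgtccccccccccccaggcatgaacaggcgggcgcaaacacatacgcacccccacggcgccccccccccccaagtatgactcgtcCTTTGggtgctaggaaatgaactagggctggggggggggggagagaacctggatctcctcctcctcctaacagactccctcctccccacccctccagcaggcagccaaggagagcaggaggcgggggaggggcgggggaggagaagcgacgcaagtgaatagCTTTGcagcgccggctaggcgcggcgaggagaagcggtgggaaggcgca

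Promoters of 8 of the 10 genes were found, 11 windows in all, since Lef1 has 4 start sites and the windows of 2 of them overlap. Wnt7b and Lgr5 had no entry. The full motif CTTTGAT or CTTTGAA was searched on both strands and was in 0 of the 11 windows, against 8.651% of the 32851 mouse promoters of the same length. The shorter core CTTTG, which is part of both, was in 5 of the 11 (all 4 windows of Lef1 and the window of Wif1) and in 53.934% of all promoters. These matches describe the windows and do not mark a bound site.

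Levels can be compared between genes per kilobase of exon, and between tables as CPM over genes outside chromosomes 5 to 9 and X. On that scale Nkd1, a cytoplasmic brake that binds Dishevelled, was the highest of the 10 in the controls of every table, at 55.6 and 70.5 CPM per kb in the Vangl2 controls at P2 and P5 and 74.5 and 83.7 in the Ror2 controls. Wnt2, Wif1 and Axin2 came next. In the Vangl2 controls at P2, Wnt2 was at 43.6 (range over the 3 lungs, 40.9 to 46.5) and Wif1 at 36.7 (18.1 to 46.5), so these neighbours in the order overlapped. Wnt3a, Wnt7b and Wnt4 lay between 4.36 and 8.56 in all 4 control groups, and Lef1 and Lgr6 between 2.44 and 4.9. Lgr5, an R-spondin receptor, was the lowest, at 0.2 to 0.258. Its normalized counts were 15.8 to 51.8 in all 24 lungs. Lgr6, another R-spondin receptor, was at 2.44 and 2.62 in the P2 controls and at 4.58 and 4.67 in the P5 controls, and Lef1 was at 3.64 and 2.98 at P2 and at 4.9 and 4.86 at P5. The ages were normalized in separate tables, and their levels are given side by side without a test.

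**Figure D1:**
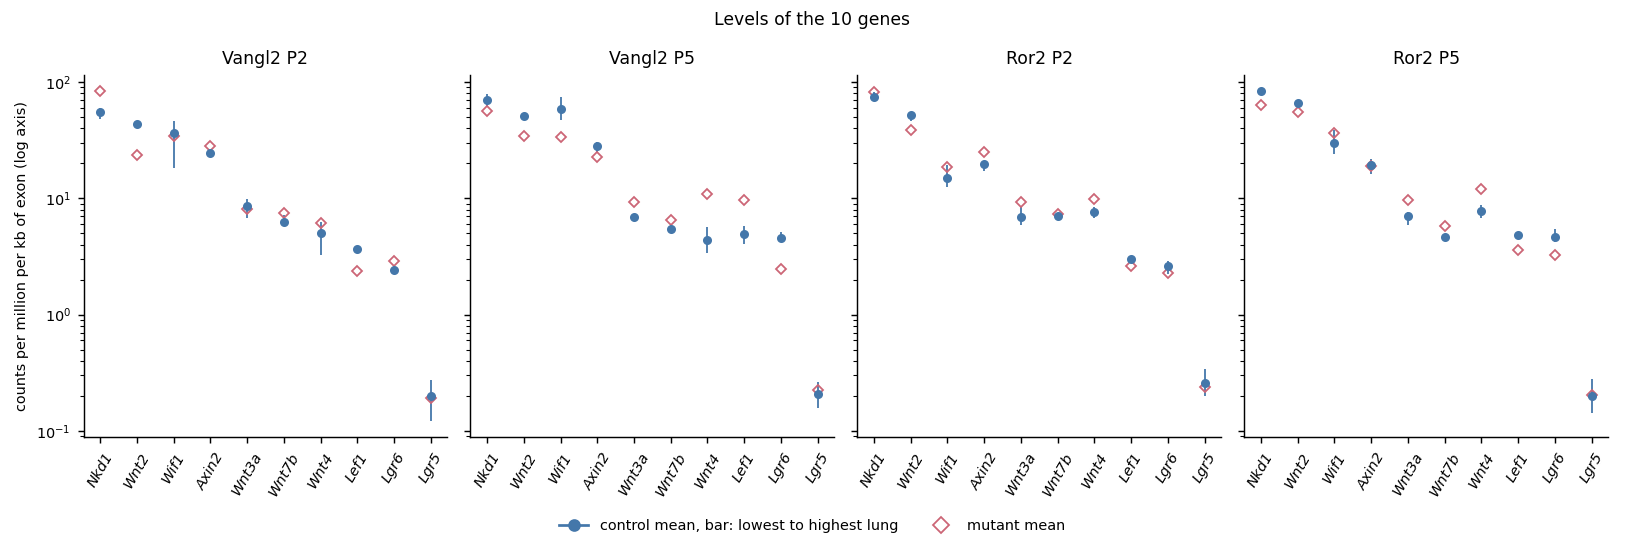
Levels of the 10 genes in CPM per kb of exon (log axis) for the 4 comparisons. Blue points are control means with bars from the lowest to the highest control lung and open red diamonds are mutant means, and Nkd1 is highest and Lgr5 lowest in the controls of all 4.

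Recovered reads on genes ranged from 16178031 to 21546673 in 20 lungs. Several lungs stood apart. Control replicate 1 of the Ror2 comparison at P5 had 13823693 reads, none on chromosomes 6 to 9 and X and few on 5, and it was set to missing for the genes there, Wnt2 and Nkd1 among the 10. Mutant replicate 3 of the Vangl2 comparison at P5 carried genes of developing T cells (Rag1 at 8683 normalized counts and at 10.1 or less in the other 5 lungs). Control replicate 3 of the Ror2 comparison at P2 had a summed level of 9 neutrophil genes of 25980, against 5227 to 8396 in the other 5 lungs. The targeted gene Vangl2 was lower in the Vangl2 mutants, at 212.7 ± 35.3 against 276.9 ± 26.7 (SD, n = 3) at P2 and at 161.2 ± 11.7 against 324.9 ± 39.4 at P5. Ror2 overlapped between groups in both Ror2 comparisons, at 397.8 ± 70.8 against 517.1 ± 65.1 at P2 and at 440.7 ± 79.7 against 497 ± 118 at P5. RNA of the whole lobe can hold transcript from cells without Cre, and fewer cells of a type cannot be told apart from less RNA per cell. Sftpc of type II cells (91780 or more) and Ager of type I cells (22920 or more) were abundant in all 24 lungs.

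Mutant and control lungs were compared in each table with limma on log2(normalized count + 1), with p-values adjusted over all genes tested. None of the 10 genes reached an adjusted p of 0.05 in any of the 4 comparisons. In the Vangl2 comparison 3.59% of 17448 genes did at P2 and 0.563% of 17410 at P5. In the Ror2 comparison 0% of 17541 genes did at P2 and 0.128% of 17179 at P5. On the recovered reads of the P2 tables, edgeR called 0 of the 10 in either, and 641 genes for Vangl2 and 0 for Ror2. DESeq2 called 2 of the 10 for Vangl2, beside 13% of 15391 genes, and 0 of the 10 for Ror2, beside 6.12% of 13115 genes. At an unadjusted p of 0.05, limma counted 3 of the 10 (background 22.5%) for Vangl2 at P2, 5 (18.8%) for Vangl2 at P5, 2 (19.3%) for Ror2 at P2 and 5 (18.4%) for Ror2 at P5. The groups did not overlap for 5 of the 10 genes in the Vangl2 comparison at P2 (29.6% of all genes tested) and for 4 at P5 (25.7%). In the Ror2 comparison they did not overlap for 2 at P2 (25.7%) and for 5 at P5 (29.9%). With 3 lungs against 3 the exact two-sided permutation test cannot give a p below 0.1, and with 2 against 3 not below 0.2.

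In the Vangl2 comparison at P5 same-numbered lungs deviated together in all 3 pairs (r = 0.384, 0.34 and 0.241). No label names such a pairing, which was read from the same values that were then tested. A fit blocked on the replicate number called 3 of the 10 genes. Wnt4 rose, and Lgr6 and Wif1 fell. Mutant replicate 1 was the only lung of this comparison taken as male, by its Xist level. With sex as a covariate and no block, the limma adjusted p was 0.0993 for Wnt4, 0.074 for Lgr6 and 0.1024 for Wif1. The block fit called 8.95% of 17410 genes, and without both lungs numbered 3 it called 11.4% of 16712 and these same 3 genes. This smaller fit, of 2 lungs against 2, was chosen after the data were seen. In the other 3 comparisons same-numbered lungs did not deviate together in all 3 pairs. For Ror2 at P2, pairs 2 and 3 did (r = 0.206 and 0.119) and pair 1 did not (0.035). Other levels also separated the groups at P5. Summed neutrophil genes were 3622 to 4946 in the Vangl2 controls and 9942 to 21970 in the mutants, and summed airway epithelium genes were 57980 to 112900 against 188700 to 251500. Summed macrophage genes were also higher in the mutants (3957 to 6590 against 7092 to 8391). So were summed mesothelial genes (4482 to 7700 against 9051 to 10760). Summed endothelial genes were lower (80000 to 88830 against 48350 to 77300), as were summed matrix fibroblast genes (113500 to 122500 against 57490 to 88220). The lowest sum of both lists was in mutant replicate 3, the lung with developing T cell genes. Of the 10 matrix fibroblast genes, 6 were above 0 and 4 below, with a median log2 fold change of 0.23. The part of these summed levels in the values of Wnt4, Lgr6 and Wif1 was not tested.

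**Figure D2:**
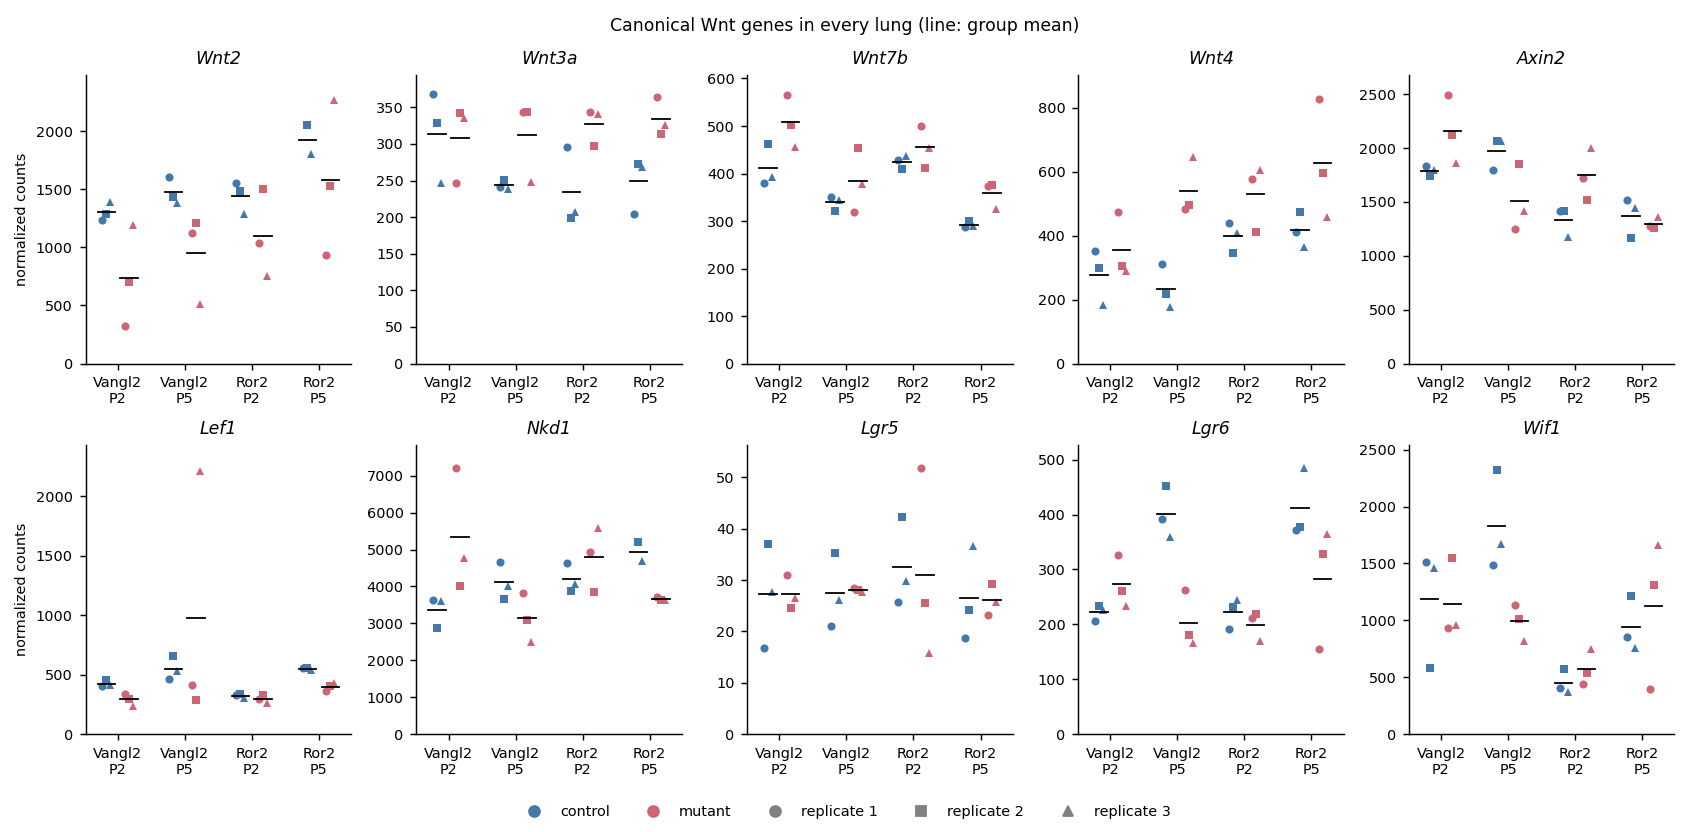
Normalized counts of the 10 genes in every lung, with 1 panel per gene and the 4 comparisons along the x axis. Blue is control, red is mutant, shapes are replicate numbers and black lines are group means, and Lef1 in Vangl2 P5 mutant replicate 3 (2215) lies far above the other lungs.

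**Figure D3:**
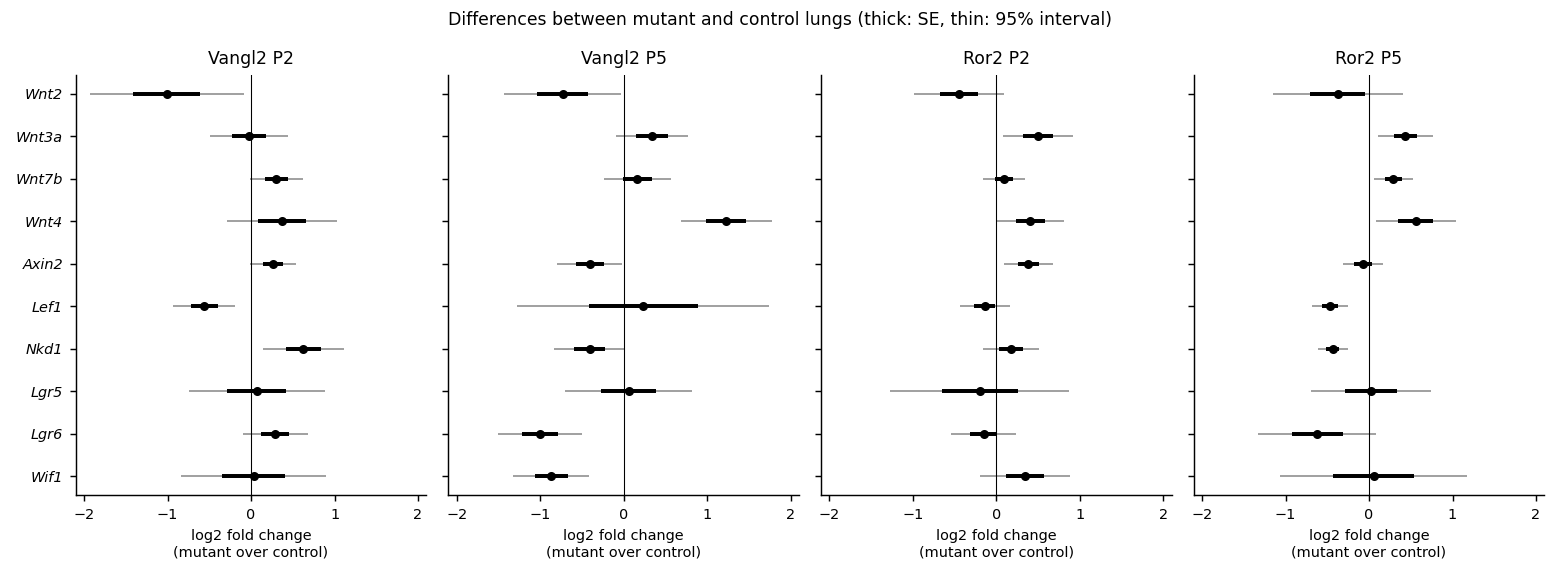
Log2 fold changes, mutant over control, for the 10 genes in each comparison, with thick bars for the SE and thin bars for the 95% interval from limma without a block. Wnt2 lies left of 0 and Wnt4 right of 0 in all 4 panels, and Nkd1 is right of 0 at P2 and left of 0 at P5.

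Of the 4 ligands, Wnt4 had the largest log2 fold change in the Vangl2 comparison at P5, and it alone of them passed in the blocked fit. There its normalized counts were 312, 216.3 and 176.4 in the Vangl2 controls and 483, 495.8 and 645.2 in the mutants. All mutant lungs lay above all controls. This was a log2 fold change of 1.23 ± 0.24 (SE), with an adjusted p of 0.0703 without the block and 0.0286 with it. Without both lungs numbered 3 the blocked value was 0.91, with an adjusted p of 0.0186. Wnt4 (chr4:137277489-137299726, + strand) encodes a ligand that can signal through beta-catenin or without it, depending on the cell. In Ror2 lungs at P5, Wnt4 was at 411.3, 473.9 and 365.2 in the controls and at 828.8, 597.4 and 459.9 in the mutants, and the lowest mutant lay within the controls, for a log2 fold change of 0.56 ± 0.21 (adjusted p = 0.223), and 0.34 without mutant replicate 1. At P2 it was 0.37 ± 0.29 in the Vangl2 and 0.41 ± 0.17 in the Ror2 comparison, with overlapping groups in both and adjusted p of 0.478 and 0.26.

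Wnt2 was lower in the mutant group means of all 4 comparisons, with wide differences between mutant lungs. Vangl2 lungs at P2 had Wnt2 at 1240, 1291 and 1390 in the controls and at 324.6, 699.2 and 1191 in the mutants. The groups did not overlap, and the mutant lungs spanned from far below the controls to just below them (log2 fold change -1.01 ± 0.40, adjusted p = 0.189). This value rested on single mutant lungs. Leaving out mutant replicate 1 gave -0.52 with an adjusted p of 0.234, and leaving out mutant replicate 3 gave -1.45 with an adjusted p of 0.0224, in a fit that called 13.6% of 17146 genes. No other lung left out brought it past the threshold. At P5 it was at 1605, 1435 and 1386 in the Vangl2 controls and at 1128, 1207 and 510.2 in the mutants. All mutant lungs were again below the controls, and the lowest was the lung with developing T cell genes. Wnt2 thus had a log2 fold change of -0.73 ± 0.30 (adjusted p = 0.247), and -0.34 without that lung. For Ror2 at P2 the controls were at 1552, 1488 and 1291 and the mutants at 1041, 1502 and 752.1 (log2 fold change -0.45 ± 0.23, adjusted p = 0.323). At P5 the 2 controls with reads on chromosome 6 were at 2051 and 1801 and the mutants at 938.7, 1532 and 2272 (-0.37 ± 0.33, adjusted p = 0.565). The highest mutant lung exceeded both controls there. Both Ror2 values also rested on single lungs. At P2 the value was -0.20 without mutant replicate 3 and -0.70 without mutant replicate 2, and at P5 it was -0.04 without mutant replicate 1 and -0.68 without mutant replicate 3.

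Marker levels are given beside Wnt2 as measured, first for the Vangl2 lungs. The summed level of 10 matrix fibroblast genes was 86750 to 97260 in the Vangl2 controls and 73870 to 79220 in the mutants at P2, and 113500 to 122500 against 57490 to 88220 at P5, while the median log2 fold change of the same genes was 0.11 and 0.23. In the P2 mutants, in replicate order, the matrix fibroblast sum was 76730, 73870 and 79220 where Wnt2 was 324.6, 699.2 and 1191. Summed airway epithelium genes were 134300 to 159800 against 238700 to 270300 at P2. Sums of myofibroblast and smooth muscle genes (57700 to 70200 against 47270 to 55880) and erythroid genes (41620 to 119200 against 21120 to 35170) were lower. Type I (112300 to 136900 against 145200 to 181500), macrophage (4315 to 4812 against 5567 to 7321) and neutrophil sums (3497 to 5335 against 8920 to 13920) were higher. In the Ror2 lungs at P2, matrix fibroblast sums were lower (85300 to 93130 against 65080 to 81800). Endothelial sums were higher there (63880 to 76110 against 78180 to 92950). At P5 airway epithelium sums were higher (68510 to 82890 against 120400 to 227200), without genes on chromosomes 5 to 9 and X. Cartilage sums were higher too (168.7 to 206.1 against 284.4 to 299.7). Other Ror2 sums overlapped. The part of cell type makeup in the values of Wnt2 and the other members was not tested. Over 23 lungs, the genes whose deviations from their group means were most like those of Wnt2 were 9930013L23Rik (Pearson r = 0.969), Cdh11, a cadherin of mesenchymal cells (0.968), and Gyg, which primes glycogen synthesis (0.964), of 13187 genes compared. Lungs of a table were normalized together and deviations within a group share its mean, so the r is a description.

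Wnt3a and Wnt7b were apart from their controls only in Ror2 comparisons. Wnt7b was at 286.4, 300.2 and 289.8 in the Ror2 controls at P5 and at 373.2, 376 and 326.3 in the mutants. The groups did not overlap there (log2 fold change 0.29 ± 0.10, adjusted p = 0.205). In the other 3 comparisons the Wnt7b groups overlapped and the log2 fold changes were 0.09 to 0.30. Wnt3a was at 296, 198.5 and 207.7 in the Ror2 controls at P2 and at 343.7, 297.7 and 340.3 in the mutants. Those groups met without overlap (0.50 ± 0.18, adjusted p = 0.219). At P5 the Ror2 controls were at 204.3, 273.1 and 268.9 and the mutants at 364.7, 313.3 and 326.3, again apart (0.44 ± 0.14, adjusted p = 0.188). Wnt3a overlapped in both Vangl2 comparisons, with log2 fold changes of -0.02 ± 0.20 at P2 and 0.34 ± 0.19 at P5.

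Axin2 and Nkd1, which encode inhibitors of the pathway that its activity induces, were higher in mutant group means at P2 and lower at P5 for both targeted genes. Axin2 forms part of the scaffold of the destruction complex. Vangl2 lungs at P2 had it at 1831, 1739 and 1794 in the controls and at 2489, 2120 and 1858 in the mutants. All mutant lungs lay above the controls, the lowest by a small margin (log2 fold change 0.26 ± 0.12, adjusted p = 0.243, and 0.15 without mutant replicate 1). Ror2 controls at P2 were at 1420, 1419 and 1171 and the mutants at 1719, 1521 and 1999, again apart (0.38 ± 0.13, adjusted p = 0.21). The value was 0.29 without control replicate 3, the lung with high neutrophil genes, and 0.28 without mutant replicate 3. At P5 the Vangl2 controls were at 1794, 2068 and 2069 and the mutants at 1249, 1857 and 1416. One mutant lung lay among the controls (-0.41 ± 0.17, adjusted p = 0.245, or 0.0705 with the block). Axin2 overlapped for Ror2 at P5 (-0.07 ± 0.10, adjusted p = 0.724).

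Nkd1 was at 3625, 2884 and 3609 in the Vangl2 controls at P2 and at 7222, 4017 and 4765 in the mutants. The groups did not overlap, and mutant replicate 1 was far above the rest (log2 fold change 0.62 ± 0.21, adjusted p = 0.141). DESeq2 on the recovered reads of that table gave 0.66 with an adjusted p of 0.0376, in the fit that called 13% of all genes. Its value without mutant replicate 1 was 0.38 in limma (adjusted p = 0.176), and edgeR gave 0.65 (0.133). At P5 Nkd1 was at 4662, 3666 and 4000 in the Vangl2 controls and at 3832, 3081 and 2489 in the mutants, which overlapped (-0.41 ± 0.19, adjusted p = 0.286, and -0.25 without mutant replicate 3). For Ror2 at P2 the groups overlapped (0.18 ± 0.14, adjusted p = 0.51). At P5 the 2 Ror2 controls with reads on chromosome 8 were at 5207 and 4680 and the mutants at 3713, 3636 and 3622. The mutants were below both controls and close together (-0.43 ± 0.08, adjusted p = 0.104).

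The change in direction between the ages was tested as an interaction over the 12 lungs of both tables. In the Vangl2 lungs the log2 fold change at P5 minus that at P2 was -0.67 ± 0.21 for Axin2, -1.03 ± 0.30 for Nkd1 and -1.29 ± 0.28 for Lgr6. The limma p was 0.00839, 0.00502 and 0.000517, and the adjusted p was 0.577 for each. These 3 were the members under an unadjusted p of 0.05, beside 8.45% of all 17068 genes tested, of which 0% passed after adjustment. In the Ror2 lungs the difference was -0.46 ± 0.17 for Axin2 (adjusted p = 0.467) and -0.61 ± 0.18 for Nkd1 (adjusted p = 0.453). These 2 members were under an unadjusted p of 0.05, beside 9.51% of 16990 genes, with 0% after adjustment. Between the targeted genes no member differed at an unadjusted p of 0.05, at P2 (4.6% of 17137 genes, 0% after adjustment) or at P5 (4.73% of 16887 genes, 0.0118% after adjustment). The widest gap there was that of Wif1 at P5, -0.92 ± 0.59 for Vangl2 minus Ror2.

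Lef1 had a lower mutant than control mean in 3 of the 4 comparisons. Vangl2 lungs at P2 had it at 407.6, 456.2 and 410.9 in the controls and at 340.1, 294.1 and 238.4 in the mutants. The groups did not overlap (log2 fold change -0.56 ± 0.16, adjusted p = 0.0994 with limma). DESeq2 on the recovered reads gave -0.55 with an adjusted p of 0.0279, and edgeR gave -0.56 with 0.0993. Ror2 controls at P5 were at 555.9, 551.3 and 537.8 and the mutants at 360.5, 402.1 and 432.3. These groups were apart with little spread (-0.46 ± 0.09, adjusted p = 0.107). Leaving out mutant replicate 3 gave -0.53 with an adjusted p of 0.0344, in a fit that called 4.87% of 17031 genes, and leaving out any other lung gave adjusted p of 0.119 to 0.43. Lef1 overlapped for Ror2 at P2, at 330, 334.6 and 304.6 against 291.9, 330 and 261.6 (-0.14 ± 0.13, adjusted p = 0.557).

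For Vangl2 at P5 the Lef1 controls were at 464.4, 653.6 and 534.1 and the mutants at 416.1, 286.5 and 2215. The first 2 mutants lay below all controls and the third far above. Its log2 fold change was 0.24 ± 0.66 with all lungs and -0.66 without mutant replicate 3 (adjusted p = 0.884 and 0.293). Tcf7, the related factor of T cells and named here after its values were seen, was at 2313, 2588 and 2436 in the controls and at 1344, 1308 and 14400 in the mutants. Its log2 fold change was 0.27 ± 0.81 with all lungs and -0.88 ± 0.13 without mutant replicate 3 (adjusted p = 0.0898). Blocked and without both lungs numbered 3, Tcf7 was at -0.88 ± 0.12 with an adjusted p of 0.00458. That fit held 2 lungs against 2, was chosen after the data were seen and called 11.4% of all genes. The same lung held Rag1 at 8683, Dntt at 1991, Cd8b1 at 2655 and Ptcra at 306.5. The summed level of 10 T and B lymphocyte genes was 13280 in it and 728.8 to 1523 in the other 5 lungs. The share of Lef1 that came from such cells was not tested.

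**Figure D4:**
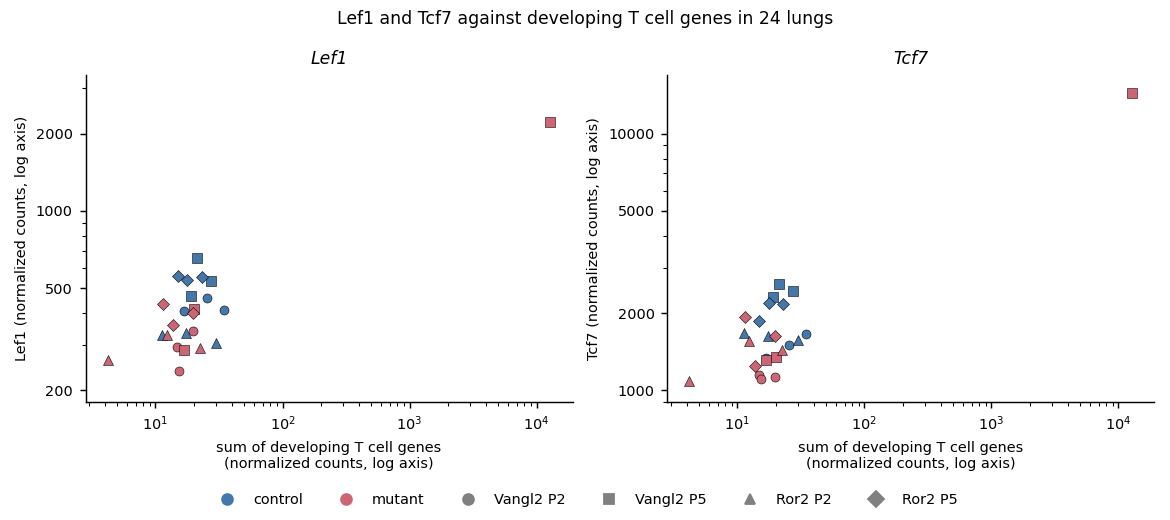
Lef1 (left) and Tcf7 (right) against the summed normalized counts of 5 developing T cell genes in 24 lungs, all axes logarithmic, with color for control or mutant and shape for the comparison. Vangl2 P5 mutant replicate 3 sits alone at a sum of 12850, while the other 23 lungs lie at 34.5 or less.

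Over all 24 lungs the genes with deviations most like those of Lef1 were Arpp21 (r = 0.96 over 23 lungs), Tcf7 (0.959) and Desi1 (0.948). Without mutant replicate 3 of the Vangl2 comparison at P5 they were Csnk2a2 (0.83), Iglon5 (0.799) and Aak1 (0.79), over 22 lungs each. None of the first 3 stayed in the list. For Axin2 the most alike were Ctnnal1 (0.835), Lonrf3 (0.828) and Gzf1 (0.823).

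Lgr6 and Lgr5 encode receptors through which R-spondins prolong Wnt signaling at the membrane. Lgr6 (chr1:134983301-135105276, - strand) was at 392.3, 452.6 and 359.8 in the Vangl2 controls at P5 and at 262.1, 181.3 and 165.3 in the mutants. The groups were well apart. This was a log2 fold change of -1.004 ± 0.22, with an adjusted p of 0.0881 without the block and 0.0265 with it. Without both lungs numbered 3 the blocked value was -0.95, with an adjusted p of 0.0255. Ror2 controls at P5 were at 371.2, 377.5 and 485.2 and the mutants at 155.4, 327.9 and 365.5. The highest mutant lay just under the lowest control (-0.62 ± 0.31, adjusted p = 0.318, and -0.24 without mutant replicate 1). At P2 the Vangl2 controls were at 205.4, 234.3 and 227 and the mutants at 326.6, 261.6 and 234.3, so the groups met at 234.3 (0.29 ± 0.17, adjusted p = 0.35, and 0.16 without mutant replicate 1). Lgr6 overlapped for Ror2 at P2 (-0.15 ± 0.16). Lgr5 overlapped in all 4 comparisons. Its log2 fold changes lay between -0.20 and 0.07, with 95% intervals as wide as -1.27 to 0.87 in the Ror2 comparison at P2, so the spread between these lungs leaves room for changes of that size.

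Wif1 encodes a secreted protein that binds Wnt ligands and holds them from their receptors. Vangl2 lungs at P5 had it at 1489, 2323 and 1671 in the controls and at 1136, 1016 and 821.2 in the mutants. No mutant lung reached the lowest control. Wif1 had a log2 fold change of -0.87 ± 0.20, with an adjusted p of 0.094 without the block and 0.0279 with it, and -0.79 (0.0295) in the blocked fit without both lungs numbered 3. Wif1 (chr10:121033960-121100650, + strand) overlapped in the other 3 comparisons. It was at 1516, 580.4 and 1464 in the Vangl2 controls and 932.3, 1549 and 956.5 in the mutants at P2 (0.03 ± 0.38). For Ror2 its log2 fold change was 0.34 ± 0.23 at P2 and 0.05 ± 0.49 at P5, where the mutants ranged from 398.5 to 1665. The genes most like Wif1 over the lungs were 4930577N17Rik (r = 0.777), Zdhhc7 (0.762) and Papd7 (0.736).

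**Figure D5:**
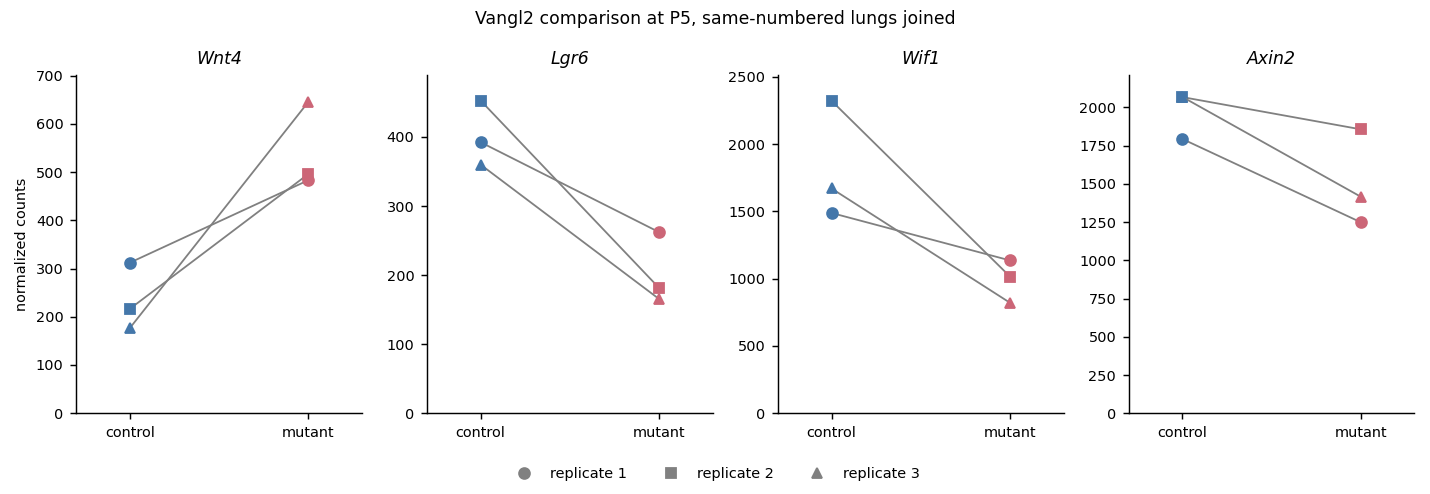
Normalized counts of Wnt4, Lgr6, Wif1 and Axin2 in the Vangl2 comparison at P5, with grey lines joining the control and mutant lung of the same replicate number. Wnt4 is higher and Lgr6, Wif1 and Axin2 are lower in the mutant lung of each of the 3 pairs.

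The other genes of the pathway were taken from 7 lists of ligands, R-spondins, receptors, inhibitors, transducers, nuclear factors and targets. In the Vangl2 comparison at P2, 3 of 85 tested passed in limma, all lower, beside 3.59% of all genes. edgeR also called 3 and DESeq2 called 8, beside 13% of all genes. Leaving out single lungs in limma gave 8 without mutant replicate 3, 2 without mutant replicate 1 and 0 when any 1 of the other 4 lungs was left out. All 3 belonged to the 15 other target genes. Tnfrsf19, a Wnt-induced receptor also called Troy, was at 2239, 2765 and 2373 in the controls and at 1377, 1731 and 1457 in the mutants (log2 fold change -0.69 ± 0.12, adjusted p = 0.0326). Ccnd1, the cyclin of the G1 phase, was at 5001, 4047 and 4459 against 2356, 2543 and 3286 (-0.73 ± 0.14, adjusted p = 0.0396). Bambi, a decoy receptor for TGF-beta, was at 963.7, 931.3 and 948.2 against 647, 607.8 and 729.3 (-0.52 ± 0.11, adjusted p = 0.0413, or 0.0614 with sex as a covariate). The groups were apart for all 3. Without mutant replicate 3 all 3 passed (adjusted p of 0.0102 to 0.0248), and Tnfrsf19 also passed without mutant replicate 1 (0.0467). Leaving out any other lung gave adjusted p of 0.0582 to 0.192 for the 3 genes. The median log2 fold change was -0.26 over the 15 target genes, 0.00 over the 85 genes and 0.00 over all genes.

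At P5 in the Vangl2 comparison, 0 of 88 other pathway genes passed in limma without the block, and the median log2 fold change was -0.17 against 0.00 over all genes, with 61 of 88 below 0. With the block, 1 rose and 10 fell, beside 8.95% of all genes. Sfrp1, a secreted Wnt inhibitor, rose from 210.8 ± 77.6 to 410.5 ± 36.6 normalized counts (SD, n = 3). The lowest adjusted p among those that fell belonged to Ccnd1 (-0.82 ± 0.14, adjusted p = 0.0241), Dvl3, a Dishevelled protein that passes on the signal (-0.55 ± 0.10, 0.0248), Tnks, which marks axins for turnover (-0.53 ± 0.10, 0.0277), and Apcdd1, a membrane inhibitor (-0.57 ± 0.11, 0.0289). Tnfrsf19 fell here too (-0.93 ± 0.19, 0.0332).

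Ror2 lungs had 0 of 87 other pathway genes past the threshold in limma at P2 and 0 of 87 at P5. At P2 edgeR called 0 and DESeq2 called 4, beside 6.12% of all genes, and limma without mutant replicate 2 called 8, beside 4.93% of 17409 genes. At P5 limma without mutant replicate 3 called 2, beside 4.87% of all genes. Their median log2 fold changes were 0.01 and -0.06. All genes had medians of -0.01 and 0.00. Of the 9 other ligands tested, 7 were above 0 at P2 and 8 at P5, with medians of 0.36 and 0.35. The SE of a single ligand was as large as 0.65 at P2 and 0.86 at P5. In the Vangl2 comparison 6 of 8 other ligands were above 0 at P2 and 4 of 9 at P5, with medians of 0.32 and -0.28. For Ror2, other target genes had 4 of 15 above 0 at P2 and 3 of 15 at P5 (medians -0.27 and -0.20). This list holds Sox9, the locus that drives the Cre in the mutants. Its log2 fold change was -0.57 ± 0.19 at P2 and -1.17 ± 0.265 at P5 for Ror2. For Vangl2 it was 0.17 ± 0.26 and -0.51 ± 0.24. Its adjusted p in limma was 0.122 or more in each comparison. The part of the Cre allele in the Sox9 values was not tested. Secreted inhibitors in the Ror2 comparison had 2 of 12 above 0 at P2 and 6 of 12 at P5 (medians -0.28 and -0.04). Of all genes tested for Ror2, 8662 of 17541 were above 0 at P2 and 8695 of 17179 at P5.

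Rspo2, an R-spondin of the lung mesenchyme and a ligand of Lgr receptors, is named here after its values were seen. Vangl2 lungs at P2 had it at 118, 173.6 and 119.7 in the controls and at 15.5, 32.5 and 76.4 in the mutants. At P5 it was at 229, 293.9 and 394 against 154.9, 85.1 and 55.4. The mutants were below all controls at both ages. The log2 fold changes were -1.96 ± 0.52 (adjusted p = 0.0812) and -1.72 ± 0.38 (0.09, or 0.0412 with the block). At P2 leaving out mutant replicate 3 gave -2.53 (0.0116, in the fit that called 13.6% of all genes), and leaving out any other lung gave -1.42 to -2.05 (0.102 to 0.282). For Ror2 the groups overlapped, with -1.11 ± 0.41 at P2 (0.229) and -0.17 ± 0.40 at P5 (0.841). The Ror2 values moved with single lungs. At P2, Rspo2 was at -0.89 when mutant replicate 3 was left out (0.438) and at -1.54 when mutant replicate 2 was (0.0482, in the fit that called 4.93% of all genes). At P5, the value was -0.57 (0.317) in the absence of mutant replicate 3 and turned to 0.34 (0.37) in the absence of mutant replicate 1.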

How the data were processed

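The authors extracted total RNA from the left lung lobe of 24 mice and deposited 4 tables, each with 6 lungs. Per the labels, DESeq2 and build mm10 were used. The aligner, counter and annotation are not given in the sources used here. The deposited signal values are read counts scaled by a size factor computed per lung and per table. Each comparison was tested within its table, and differences between comparisons were tested as interactions over 2 tables, each with its own controls and a term for the table. Deposited fold changes, test statistics and p-values of the authors were not used. Dividing by the smallest step gave whole reads in 21 lungs (100% of values within 0.02 of a whole number). In 3 lungs of the P5 tables the step (1.00772, 1.00411 and 0.992297) lay within a margin set around 1. Their reads were not used, although 100% of their values were also whole by that step. Count tests were therefore run only at P2.

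edgeR had been planned for tables of raw counts and limma for normalized values. Since the tables hold normalized values, limma 3.58.1 (trend, log2(value + 1), genes at 1 or more in at least 3 lungs, Benjamini-Hochberg) was the main test. edgeR 4.0.16 and DESeq2 1.42.0 on recovered reads, other pseudocounts, TMM, a replicate block, sex and leaving out each lung were alternatives. Sex was taken from Xist, with lungs over 1000 normalized counts as female. The scripts were tested on simulated data. Exact permutation tests over lungs (scipy 1.17.1) were two-sided. Replicates are labelled as separate samples, and p-values measure the spread between them. Control replicate 1 of the Ror2 table at P5 was set to missing for 8085 genes on chromosomes 5 to 9 and X. Chromosomes were taken from RefSeq by symbol, else from GENCODE M21 (GRCm38), else from RefSeq synonyms. The 154 genes with no chromosome were left as deposited. Same-numbered lungs had deviations from their group means correlated above 0.1 in all 3 pairs only in the Vangl2 table at P5. There the r was 0.384, 0.34 and 0.241, and no label names a shared litter.

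All 10 genes are named, with the targeted genes and, of other pathway genes, those that passed the threshold, at most the 5 with the lowest adjusted p per comparison. Tcf7, Rspo2, Porcn, Ctnnb1 and Sox9, the locus of the Cre, were named outside this rule, after their values were seen. Genes alike were the 3 with the highest r among genes of at least 50 normalized counts. The members and lists were chosen with earlier results of these data known, and the developing T cell genes after the lung that carries them was seen.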

Additional observations from a re-analysis of the deposited data

Results flagged for a closer look

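Lgr6 lay on opposite sides of its controls at the 2 ages of the Vangl2 comparison, with every mutant lung at or above the highest control at P2 (log2 fold change 0.29) and every mutant lung below the lowest control at P5 (-1.0). The lowest mutant and the highest control at P2 were both at 234.3 normalized counts. The interaction of age and genotype, P5 minus P2, was -1.29 ± 0.28 with an adjusted p of 0.577 in limma, so it did not pass after adjustment over 17068 genes.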

How the results depend on the processing

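Counts of called genes moved with the setting in all 4 comparisons. For Vangl2 at P2, 626 genes became 2001 with DESeq2 on recovered reads, which called 2 of the 10 members (Lef1 and Nkd1), and leaving out single lungs gave 1 to 2333 genes and 0 to 1 members (Wnt2, without mutant replicate 3). For Vangl2 at P5, 98 genes became 1558 with the replicate block, 22 with sex as a covariate and 1906 with the block and without both lungs numbered 3, an alternative chosen after seeing the data. Both block fits called 3 members, and leaving out single lungs gave 0 to 54 genes. For Ror2 at P2, 0 genes became 1 with the replicate block and 803 with DESeq2, and 0 to 859 without single lungs. For Ror2 at P5, 22 genes became 1 with the block, 1 with control replicate 1 as deposited and 0 to 830 without single lungs, with 0 to 1 members (Lef1, without mutant replicate 3). The difference between Vangl2 and Ror2 at P5 counted 0 to 4 genes without single lungs, against 2. The block changed no other member's call. For Vangl2 at P2, Bambi had an adjusted p of 0.0564 with the block, where same-numbered lungs did not deviate together in all 3 pairs.

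Of the members' log2 fold changes under settings other than leaving out 1 lung, 275 kept direction and side of the threshold, 8 newly passed it and 7 reversed. The reversed ones were Lgr5 for Vangl2 at P2 with edgeR (-0.011), Wif1 there with sex (-0.15), edgeR (-0.062) and DESeq2 (-0.050), Lef1 for Vangl2 at P5 blocked without both lungs numbered 3 (-0.67), and, with the Ror2 P5 control that lacks chromosomes as deposited, Wnt2 (3.26) and Nkd1 (3.66). The cause was not tested except in the last pair, where the zeros of that lung set the value. Leaving out single lungs reversed Wnt3a (-0.19 to 0.13), Lgr5 (-0.23 to 0.32) and Wif1 (-0.42 to 0.27) for Vangl2 at P2, Lef1 (-0.66 to 0.82) and Lgr5 (-0.11 to 0.25) for Vangl2 at P5, Lgr5 (-0.64 to 0.19) for Ror2 at P2, and Axin2 (-0.19 to 0.00090), Lgr5 (-0.19 to 0.28) and Wif1 (-0.35 to 0.68) for Ror2 at P5. The sex covariate was not run for Ror2 at P5, nor count tests at P5.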

Other observations

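Porcn, which encodes the enzyme that adds the lipid Wnt ligands need for release, had log2 fold changes above 0 in all 4 comparisons, at 0.64 ± 0.19 and 0.37 ± 0.16 in the Vangl2 lungs at P2 and P5 and 0.44 ± 0.15 and 0.49 ± 0.18 in the Ror2 lungs. The adjusted p in limma was 0.107, 0.263, 0.215 and 0.23, so none passed. Ctnnb1, which encodes beta-catenin, had log2 fold changes between -0.12 and 0.05 in the 4 comparisons, with an adjusted p of 0.589 or more. Both genes were singled out after their values were seen.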
